A study of Mus musculus with 384 samples.

Results

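The transcription factor p53, encoded by Trp53, 8 genes that it is known to activate and Sfn were followed in single cells of 2 kinds of mouse pluripotent stem cell. The 10 genes were taken as the rows of the deposited count table whose Ensembl identifiers map to Trp53, Mdm2, Cdkn1a, Sfn, Ccng1, Bax, Bbc3, Pmaip1, Phlda3 and Aen, which are 10 of the 31617 genes listed. They were chosen with earlier results of these data known. Sfn was selected on its level per line, being high only in AFX6, so its level per line is a description without a test. Of the 10 genes, 9 passed the filter on low counts and Pmaip1 did not.

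Formative stem (FS) cells of the lines 5ar1 and 5ar2 were grown in AloXR, which the labels call A3XR and which holds a low dose of activin, the tankyrase inhibitor XAV939 and the retinoic acid receptor inverse agonist BMS493. Primed epiblast stem cells (EpiSCs) were represented by AFX6, grown in AFX with activin, Fgf2 and XAV939, and by AF32, grown in AF with activin and Fgf2. All 4 lines were kept in N2B27 medium on fibronectin, and none is given a genetic change. The study derived lines from E5.5 mouse epiblast and from ES cells, and which applies to each of these lines is not given in the sources used here. Of 96 cells sorted per line into single wells, those with at least 3000000 counts were kept, which left 90 cells of 5ar1, 90 of 5ar2, 66 of AFX6 and 80 of AF32 with 3022666 to 6686007 counts each. Cells of a line are not replicates, so FS cells and EpiSCs were compared as 2 lines against 2, and each EpiSC medium had only 1 line.

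As background, p53 protein is held at a low level in unstressed cells by Mdm2, an E3 ubiquitin ligase that marks it for degradation and is itself made from a p53 target gene. Damaged DNA and other stresses stabilise the protein, which binds response elements in its target genes and can arrest the cell cycle or start apoptosis. Because this control acts mainly on the protein, the level of Trp53 mRNA need not follow the activity of p53. Pluripotent cells of the early embryo are known to be poised for apoptosis. Sfn encodes 14-3-3 sigma, a cell cycle inhibitor that is a p53 target in some epithelial cells and is typical of stratified epithelium.

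The labelled cell type was checked against markers. Of 7 pluripotent epiblast markers in the table, at least 5 reached 5 CPM (counts scaled to 1000000 per cell or line) in every line. Those that did not were Sox2, at 4.88 CPM, and Pou3f1, at 3.83 CPM, both in AFX6. The summed level of the 7 in the median cell was 1475 to 1964 CPM. Trophoblast and extraembryonic endoderm markers summed to 0 CPM in the median cell of each line. The summed pluripotency markers were under 100 CPM in 2 cells of 5ar1, 1 of 5ar2 and 2 of AF32. Surface epithelium markers, which reached 7538 CPM in a cell of AFX6, are described with Sfn. Of the remaining lineages, the highest single-cell sums were 10109 CPM (neural, 5ar1), 2671 CPM (fibroblast, 5ar2) and 2369 CPM (mesoderm, AF32). In the median cell neural markers summed to 220 CPM in 5ar1 and 120 CPM in 5ar2. That median was 0.491 CPM in AFX6 and 2.61 CPM in AF32. Of the neural markers only Tubb3 reached 5 CPM in either FS line, at 335 CPM in 5ar1 and 130 CPM in 5ar2. It had counts in all 90 kept cells of both. Fibroblast markers summed to at most 6.46 CPM and mesoderm markers to 0 CPM in the median cell of each line.

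The p53 response element is built of adjacent decamers, each with the core CNNG, A or T at the inner letters, purines before it and pyrimidines after it. This palindromic element reads alike on both strands, so 1 search of the RefSeq promoter windows of GRCm38.p6 covered both. No spacer between the decamers was allowed. A window runs from 250 bases before to 50 bases after a gene's start, and 9 of the 10 genes had at least 1. A full site of 20 bases with at most 1 mismatch was present in 29 of 32851 windows (0.0883%), and Cdkn1a and Ccng1 were among these. Both promoter stretches are shown because these genes varied together between cells, as described below, with the site in capitals, written 5′ to 3′ on the strand of the gene.
Cdkn1a, chr17:29090868-29090978, plus strand: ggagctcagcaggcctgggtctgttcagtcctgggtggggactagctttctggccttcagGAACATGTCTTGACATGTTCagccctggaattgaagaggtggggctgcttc
Ccng1, chr11:40755402-40755536, minus strand: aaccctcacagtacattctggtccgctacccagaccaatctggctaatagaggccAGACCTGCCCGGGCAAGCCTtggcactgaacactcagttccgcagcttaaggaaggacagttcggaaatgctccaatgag
The Cdkn1a site lay 51 to 32 bases before the more upstream of its starts, and the Ccng1 site 195 to 176 bases before the start of Ccng1. The window of a more downstream start of Cdkn1a had a best site with 5 mismatches (chr17:29093697-29093716). The best site of the other genes was further from the element, and 4 of these are shown for comparison, with the whole 20 bases in capitals.
Aen, chr7:78895937-78895956, plus strand: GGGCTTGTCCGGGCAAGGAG
Bax, chr7:45467090-45467109, minus strand: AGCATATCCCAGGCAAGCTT
Trp53, chr11:69580284-69580303, plus strand: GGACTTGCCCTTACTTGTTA
Sfn, chr4:133602247-133602266, minus strand: GATCATGGATGCGCAAGTTT
Aen, Bax and Trp53 had 3 mismatches, as did Bbc3, and 6.29% of all windows held a site with at most 3. Sfn had 4 mismatches, which 30.2% of windows matched, while Mdm2 and Phlda3 had 5, which 76.6% matched. Sites outside these windows were not searched, so a poor match here does not show that a gene lacks an element. These letters are a description of the windows and not evidence of binding.

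Trp53 (ENSMUSG00000059552, GRCm38 chr11:69580359-69591873, plus strand, 7 exonic blocks) had the largest difference toward FS cells in the set, although it did not pass the adjusted threshold of the main test. Its line level, from the summed counts of all its kept cells, was 446 CPM in 5ar1, 510 CPM in 5ar2, 226 CPM in AFX6 and 166 CPM in AF32. Single cells ranged from 70.3 through a median of 450 to 1317 CPM in 5ar1 and from 236 through 485 to 900 CPM in 5ar2. In AFX6 the lowest, median and highest cells had 0.784, 206 and 542 CPM, and in AF32 they had 0.203, 162 and 571 CPM.
Cells of the 2 kinds of line therefore overlapped, while the line levels did not, the lower FS line being 1.97-fold above the higher EpiSC line. The 2 FS lines were 1.14-fold apart and the 2 EpiSC lines 1.36-fold.

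The log2 difference of Trp53, FS minus EpiSC, was 1.28 (SE 0.24, n = 2 and 2 lines) with an unadjusted p of 0.00505 and an adjusted p of 0.19 in edgeR's quasi-likelihood test over 22606 genes. No gene passed an adjusted p of 0.05 in that test (0 percent called), whereas 9.06% of genes were higher in FS cells and 7.02% lower at an unadjusted p under 0.05. DESeq2 gave Trp53 an adjusted p of 0.000554, in a fit that called 5.6% of genes higher in FS cells, and limma on the deposited normalized values gave 0.0505, just outside its threshold, with 2.09% called higher. The adjusted p of Trp53 ranged from 0.000554 to 0.751 over its 14 alternatives, and its log2 difference from 1.05 to 1.74.
Trp53 lies on chromosome 11, whose expression was raised (over 1.2 times the median of the autosomes) in 66 of 80 AF32 cells, 9 of 66 AFX6 cells, 11 of 90 5ar1 cells and 0 of 90 5ar2 cells. AF32 was thus the line with the lowest Trp53 and the most cells with chromosome 11 raised. Without those cells the log2 difference was 1.24, with an edgeR adjusted p of 0.158.

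A processed pseudogene, Trp53-ps on chromosome 17, held 0.388 to 1.5 CPM in the 4 lines, so few counts were assigned to this copy. Wrap53, which encodes a protein of Cajal bodies and telomerase, starts 104 bases from Trp53 on the other strand, and it too was higher in both FS lines. It had 46.1 CPM in 5ar1, 44.7 CPM in 5ar2, 24.3 CPM in AFX6 and 13.1 CPM in AF32. The log2 difference of Wrap53 was 1.27 (SE 0.38), with an edgeR adjusted p of 0.238.

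Of the 7 targets other than Pmaip1, Bax had, like Trp53, both FS lines above both EpiSC lines, and the other 6 did not. This order was held by 26.8% of all genes tested. All 7 were, like Trp53, lowest in AF32, as were 22.7% of genes averaging 20 CPM or more. Mdm2 (ENSMUSG00000020184, chr10:117688875-117710758, minus strand), the ligase that restrains p53, had 89.5 CPM in 5ar1, 103 CPM in 5ar2, 132 CPM in AFX6 and 58.6 CPM in AF32. The EpiSC lines lay on either side of both FS lines. Its log2 difference was -0.00 (SE 0.45, edgeR adjusted p = 0.999).
Cdkn1a (ENSMUSG00000023067, chr17:29090976-29100727, plus strand), which encodes the CDK inhibitor p21, had 110, 134, 182 and 47.7 CPM in 5ar1, 5ar2, AFX6 and AF32. Ccng1 (ENSMUSG00000020326, chr11:40748552-40755311, minus strand), which encodes cyclin G1, had 241, 265, 445 and 154 CPM in the same order. In both genes AFX6 was highest and AF32 lowest, with the FS lines between them.
Their log2 differences were 0.07 (SE 0.68) for Cdkn1a and -0.26 (SE 0.55) for Ccng1, with edgeR adjusted p of 0.985 and 0.903. The 2 lines of each kind were closer in FS cells, at 1.22-fold for Cdkn1a and 1.10-fold for Ccng1, than in EpiSCs, at 3.81-fold and 2.89-fold.

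Phlda3 (ENSMUSG00000041801, chr1:135766119-135769136, plus strand), which encodes a PH-domain protein that restrains Akt, varied most between lines among the genes other than Sfn and Pmaip1. It had 141 CPM in 5ar1, 235 CPM in 5ar2, 226 CPM in AFX6 and 36 CPM in AF32, so that AF32 stood below the other 3 lines. Aen (ENSMUSG00000030609, chr7:78895854-78911209, plus strand), which encodes an apoptosis-enhancing nuclease, had 189, 163, 188 and 80.8 CPM in the same order. Again 3 lines were close and AF32 was lower. The log2 differences were 0.50 (SE 0.92) for Phlda3 and 0.37 (SE 0.46) for Aen, with edgeR adjusted p of 0.883 and 0.807.
For these targets the direction depended on the EpiSC line. Without AFX6 the log2 differences were 0.73 for Mdm2, 1.37 for Cdkn1a, 0.73 for Ccng1, 2.40 for Phlda3 and 1.14 for Aen, and without AF32 they were -0.49, -0.61, -0.84, -0.30 and -0.13.

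Of the apoptosis effectors, Bax (ENSMUSG00000003873, chr7:45461697-45466898, minus strand), which forms pores in the mitochondrial outer membrane, had 278, 299, 240 and 170 CPM in 5ar1, 5ar2, AFX6 and AF32. The FS lines were above the EpiSC lines, by 1.16-fold between the nearest lines, and the log2 difference was 0.48 (SE 0.24, edgeR adjusted p = 0.445). Bbc3 (ENSMUSG00000002083, chr7:16308393-16318205, plus strand), which encodes the BH3-only protein Puma, had 44.7, 44.5, 90.5 and 34.9 CPM in the same order. Its log2 difference was -0.51 (SE 0.51, edgeR adjusted p = 0.743). Without AFX6 that of Bbc3 was 0.37.
Pmaip1 (ENSMUSG00000024521, chromosome 18), which encodes the BH3-only protein Noxa, was not detected in the kept cells of 5ar1, 5ar2 or AF32. Its only counts in kept cells were 11 in 1 cell of AFX6. A count in 0 of 90 cells allows a share of up to 4.02% of cells with a count (exact Clopper-Pearson), a limit that covers counting error only. Per kilobase of exonic sequence the highest line levels in 5ar1 were 177 CPM for Bax, 110 for Trp53 and 90.5 for Phlda3, against 17.6 for Mdm2 and 21 for Bbc3.

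Trp53 and Bax were 2 of the 9 genes tested with both FS lines above both EpiSC lines, an order held by 26.8% of all genes tested, and Sfn was the 1 gene with both FS lines below, an order held by 21.5%. Of the 8 genes other than Sfn and Pmaip1, all 8 had their lowest line level in AF32, where 22.7% did among the 7039 genes averaging 20 CPM or more. The highest level was in AFX6 for 4 of the 8, against 24.6% of those genes. In AFX6, 6 of the 8 were at least 2-fold above AF32, a difference seen in 4.79% of those genes, and their folds were 2.26 for Mdm2, 3.81 for Cdkn1a, 2.89 for Ccng1, 2.6 for Bbc3, 6.28 for Phlda3 and 2.33 for Aen. Trp53, at 1.36-fold, and Bax, at 1.41-fold, made up the rest. Between the 2 FS lines none of the 8 differed by 2-fold (0 of 8), against 2.22% of those genes, and the most different was Phlda3 at 1.67-fold.

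Because each EpiSC medium had only 1 line, the line and the medium cannot be told apart, and no test was made between AFX6 and AF32. All 8 genes were lowest in AF32 also when cells with few detected genes or low pluripotency markers were left out, when cells were thinned to equal depth and when the median or mean cell was used in place of the sum. Without the cells with chromosome 11 raised, which left 14 cells of AF32, 7 of the 8 were lowest in AF32, against 28.8% of the 7039 genes in this setting, and 3 were at least 2-fold higher in AFX6, against 7.63%. These were Cdkn1a at 2.3-fold, Ccng1 at 2.1-fold and Phlda3 at 6.09-fold. In those 14 cells of AF32 each of the 8 genes except Phlda3 was above its level over the 80 cells. Cdkn1a had 76.9 CPM, Bbc3 52.2 CPM and Aen 111 CPM, while Phlda3 had 34 CPM against 36 CPM. Bbc3 was the gene no longer lowest in AF32, as it had 44.5 CPM in 5ar2.

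**Figure D1:**
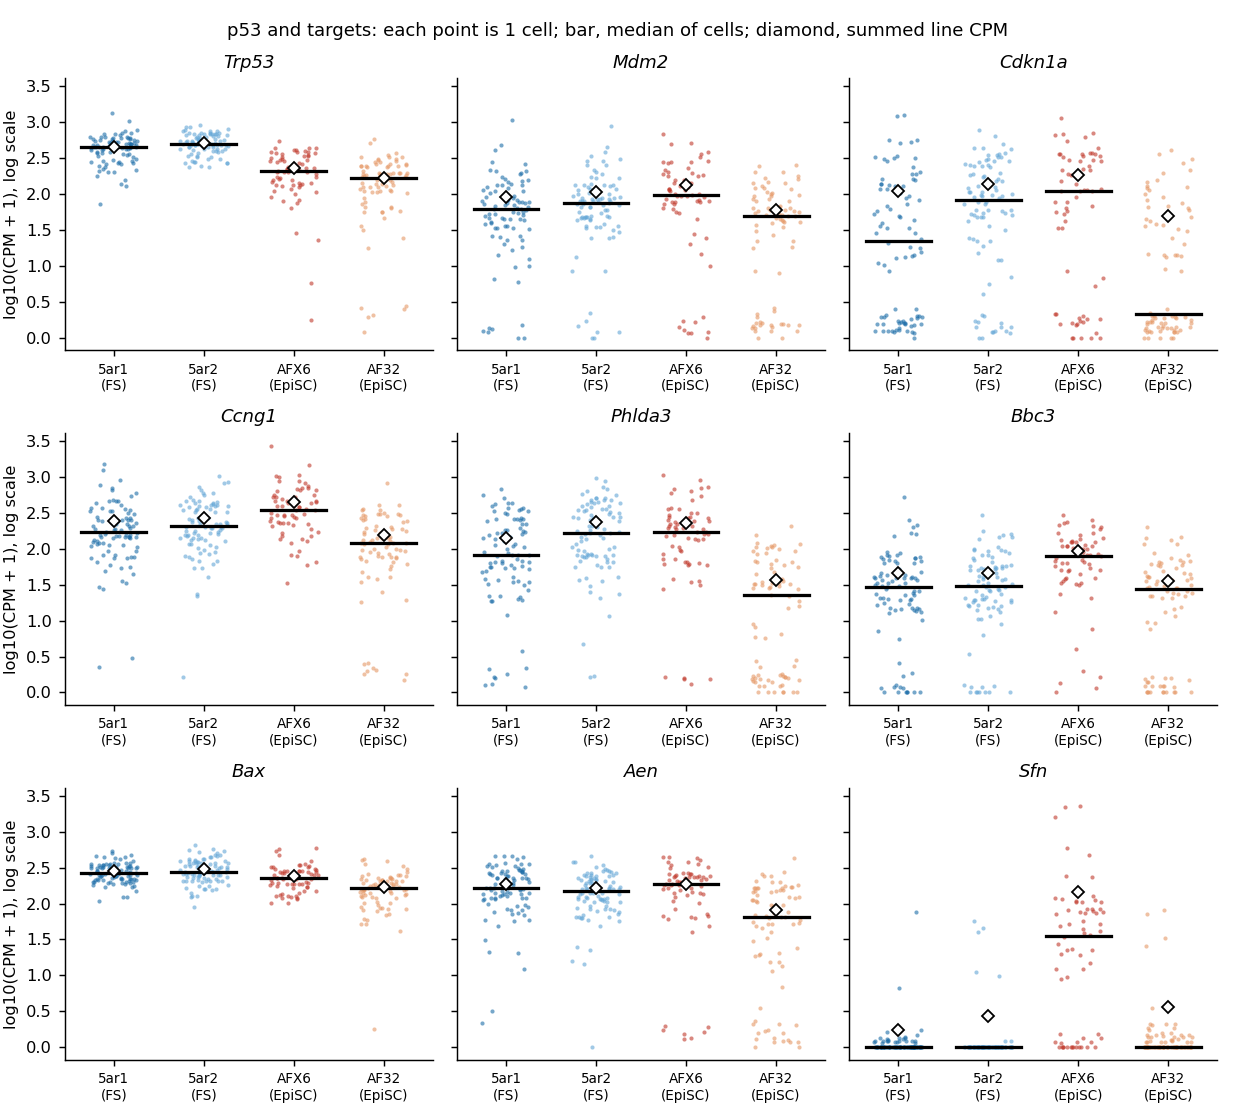
Expression of 9 genes in single cells of each line, as log10(CPM + 1) on the vertical axis; points are kept cells (90, 90, 66 and 80), bars the median cell and diamonds the line level from summed counts. Trp53 lies higher in the FS lines, Cdkn1a has many cells near 0 in every line, and Sfn is high mainly in AFX6 cells.

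The genes also differed in how they were spread over cells. Cdkn1a had a median cell of 21.2 CPM in 5ar1, 81.5 CPM in 5ar2, 107 CPM in AFX6 and 1.1 CPM in AF32, with highest cells of 1238, 757, 1119 and 400 CPM. Cells at both extremes were found in every line, since 30 of 90, 14 of 90, 15 of 66 and 40 of 80 cells had under 1 CPM, and 27, 38, 34 and 12 had at least 100 CPM. In AF32 the 9 highest cells held 60.6% of the Cdkn1a level summed over cells.
Its squared coefficient of variation was above the trend of genes at the same mean, at percentiles of 99.5, 99.3, 98 and 95.3 of all genes in 5ar1, 5ar2, AFX6 and AF32. The values fell apart into cells near 0 and cells above. Of all 326 cells, 109 had Cdkn1a under 2 CPM, 13 of them with no count, 3 had 2 to 5 CPM and 214 had at least 5 CPM. Each of the 10 genes had 0 to 4 cells between 2 and 5 CPM, so this gap was not particular to Cdkn1a. Cells under 2 CPM numbered 54 for Bbc3, 46 for Phlda3 and 45 for Mdm2.

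Trp53 and Bax had the lowest coefficients of variation of the set in every line. No cell of 5ar1 or 5ar2 had under 5 CPM of Trp53, and its coefficient of variation was 0.418, 0.302, 0.549 and 0.674 in 5ar1, 5ar2, AFX6 and AF32. Bax was at or above 5 CPM in 325 of 326 cells, and its coefficient of variation was 0.309 to 0.481. These compare with 1.13 to 1.96 for Cdkn1a. Against genes at the same mean the percentiles were 14.8, 50.4, 13.1 and 16.1 for Bax and 76.2, 41.7, 30.4 and 59 for Trp53, so that in AF32 Trp53 was above Bbc3, Phlda3 and Mdm2, at 30.5, 44.8 and 54.8. The EpiSC lines held the few cells almost without Trp53, 1 of 66 in AFX6 and 2 of 80 in AF32 having under 1 CPM.
Phlda3 in AF32 was low in more cells as well as lower in level. Its lowest, median and highest cells had 0, 21.4 and 204 CPM there, against 0.331, 170 and 1066 CPM in AFX6. Under 1 CPM were 27 of 80 AF32 cells, 5 of 66 AFX6 cells, 6 of 90 5ar1 cells and 2 of 90 5ar2 cells.

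Between the cells of a line the targets varied together. Spearman's rho of CPM was computed across the kept cells of each line for the 28 pairs among the 8 genes other than Sfn and Pmaip1, and as the rule for the set includes covariation, it is given as a description. The cells of a line share culture and depth, so no p is given. Over the 21 pairs among the 7 targets the FS lines had a median rho of 0.36 (5ar1) and 0.44 (5ar2), and the EpiSC lines had 0.27 (AFX6) and 0.20 (AF32). The median over all 42003195 pairs of the 9166 genes averaging 5 CPM or more in every line was 0.01, 0.01, 0.02 and 0.01. Of all gene pairs 0.139%, 0.0548%, 3.6% and 5.74% reached the targets' median in the same order. The FS lines had the higher medians, and AF32, where the targets were lowest, had the lowest. AF32 also had the largest share of cells under 1 CPM for each of the 7 targets, with 50% for Cdkn1a and 33.8% for Phlda3. The part of such cells in the lower rho was not tested.

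Cdkn1a, Ccng1 and Phlda3 formed the tightest group. Cdkn1a and Phlda3 had a rho of 0.61, 0.67, 0.65 and 0.32 in 5ar1, 5ar2, AFX6 and AF32. For Cdkn1a and Ccng1, the genes with the site of at most 1 mismatch shown above, it was 0.62, 0.65, 0.51 and 0.35. For Ccng1 and Phlda3 it was 0.59, 0.77, 0.62 and 0.33.
All 3 pairs were positive in every line, and all were weakest in AF32. By the mean rho over the 4 lines, Phlda3 ranked 1 and Ccng1 2 among the 9165 other genes for likeness to Cdkn1a. For Ccng1 the ranking was Phlda3 and then Cdkn1a, and for Phlda3 it was Ccng1 and then Cdkn1a. Cdkn1a and Ccng1 lie on different chromosomes, as does Phlda3.

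**Figure D2:**
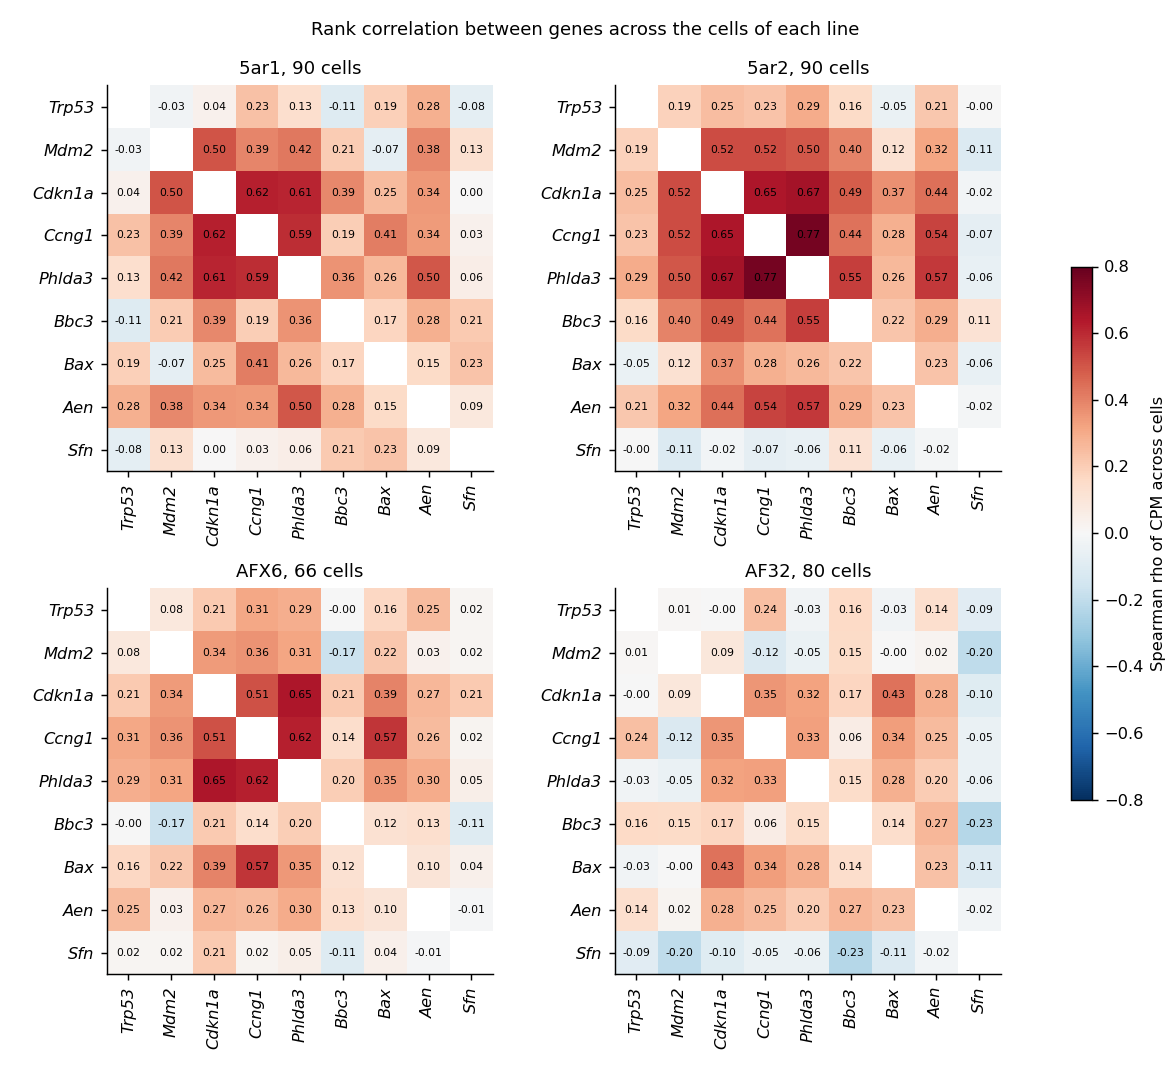
Spearman's rho of CPM between 9 genes across the kept cells of each line, 1 panel per line, with colours from -0.8 to 0.8 and the value in each square. The block of Cdkn1a, Ccng1 and Phlda3 is strong in 5ar1, 5ar2 and AFX6 and weaker in AF32, and the row of Sfn is near 0.

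Mdm2 joined this group in 3 lines and not in AF32. Its rho with Cdkn1a was 0.50, 0.52, 0.34 and 0.09 in 5ar1, 5ar2, AFX6 and AF32, and with Ccng1 it was 0.39, 0.52, 0.36 and -0.12. Cdkn1a was still the first of 9165 genes for likeness to Mdm2 by the mean over lines, at 0.36.
The apoptosis genes were more loosely tied. Bax and Ccng1 had a mean rho of 0.40 over the lines, Bax and Cdkn1a 0.36 and Bbc3 and Cdkn1a 0.31, whereas Bax and Bbc3, which act in the same step of apoptosis, had 0.16. Aen was closest to Phlda3, with a mean rho of 0.39. The mRNA of Trp53 itself was less closely related to its targets than these were to each other. Its median rho with the 7 was 0.13, 0.21, 0.21 and 0.01 in 5ar1, 5ar2, AFX6 and AF32, and the highest mean over lines was 0.25 with Ccng1, which shares chromosome 11 with it. By this mean Ccng1 ranked 4, Aen 17, Phlda3 101 and Cdkn1a 478 of 9165 genes for likeness to Trp53, while Bax, Mdm2 and Bbc3 ranked 1824, 2138 and 2555.

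The relations were of like size when depth and the number of detected genes were taken into account. The mean over lines of the 28-pair median was 0.26, and it was 0.26 for rank correlations with total counts and detected genes held constant, 0.26 for cells thinned to 3000000 counts and 0.25 without the cells with few detected genes. Across its cells Cdkn1a had a rho with the number of detected genes of -0.06, 0.01, -0.07 and 0.33 in 5ar1, 5ar2, AFX6 and AF32, so that AF32 was the line in which both moved together. For Ccng1 and the relative expression of its chromosome the rho was -0.07, 0.02, 0.07 and -0.04. For Trp53 and the same ratio it was 0.15, -0.20, 0.35 and 0.16, where the median of 504 other genes of chromosome 11 was 0.15, 0.05, 0.16 and 0.16. For Cdkn1a and chromosome 17 it was -0.21, -0.03, 0.26 and 0.04, and for Mdm2 and chromosome 10 it was 0.06, 0.04, 0.30 and 0.11. Chromosome 10 was raised in 2 of 66 AFX6 cells and 18 of 80 AF32 cells, and chromosome 17 in 7 and 2.

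**Figure D3:**
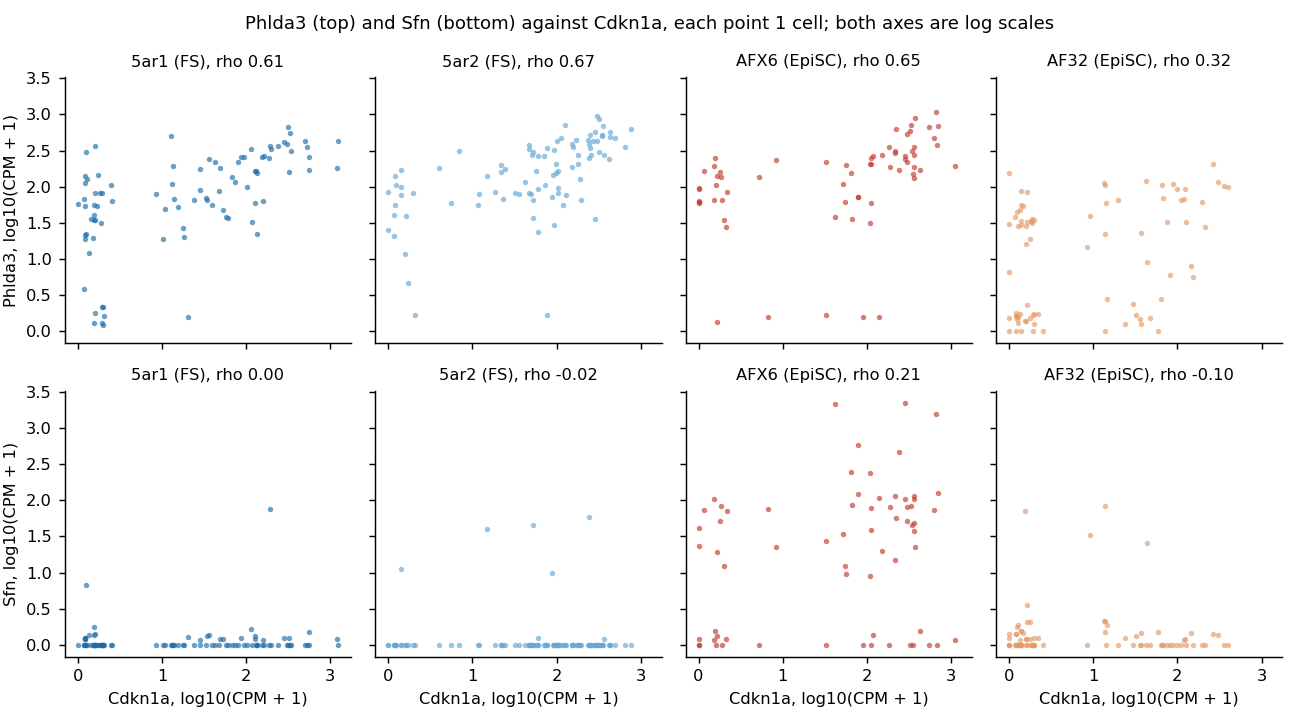
Phlda3 (upper panels) and Sfn (lower panels) against Cdkn1a in single cells of each line, both as log10(CPM + 1). Phlda3 rises with Cdkn1a in 5ar1, 5ar2 and AFX6, with rho of 0.61, 0.67 and 0.65, while high Sfn in AFX6 is found in cells with and without Cdkn1a (rho 0.21).

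A list of 28 other p53 targets gave the wider pathway. Of these, 24 averaged 5 CPM or more in every line, and their median of the mean rho with Cdkn1a was 0.28, against 0.00 (-0.00215) over all 9165 genes. The rho with Cdkn1a was above 0 in all 4 lines for 16 of the 24 (66.7%), against 7.73% of all genes, and below 0 in all 4 for 0 of the 24, against 7.1%. Of the 20 genes most like Cdkn1a, 5 were among the 8 genes above and 7 were on this list.
The nearest list genes were Trp53inp1, which encodes a nuclear stress protein that promotes p53 activity, at a mean rho of 0.40, and Gtse1, which encodes a G2 and S phase protein that binds p53, at 0.38. Gtse1 and Rps27l, a ribosomal protein paralogue with a mean rho of 0.30, are also among the 29 genes with a promoter site of at most 1 mismatch. Of these 29, 14 are in the table and 5 reached 5 CPM in every line besides Cdkn1a, and the remaining 2 had means near 0, with -0.02 for Mthfd1 and 0.05 for Sptbn4.

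Some known targets did not follow Cdkn1a. Sesn1, which encodes a sestrin that restrains mTORC1, had a mean rho of -0.07 and Tigar, which encodes a regulator of glycolysis, had -0.07, while Ddb2, a DNA damage sensor, had 0.03. Of the genes that act on p53, 16 regulators and partners had enough counts, and their median rho with Cdkn1a was -0.02. Of these, 0 were positive in all 4 lines, a count near the 7.73% of all genes. For 12 cyclins, CDKs and CDK inhibitors the median was -0.00 and 0 of 12 were positive in all 4 lines, again near that share. For 6 other 14-3-3 genes it was 0.04, with 1 of 6 positive throughout. With Phlda3, 5 of the 16 regulators and partners were below 0 in all 4 lines and 0 above, against 6.73% and 10.6% of all genes.

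**Figure D4:**
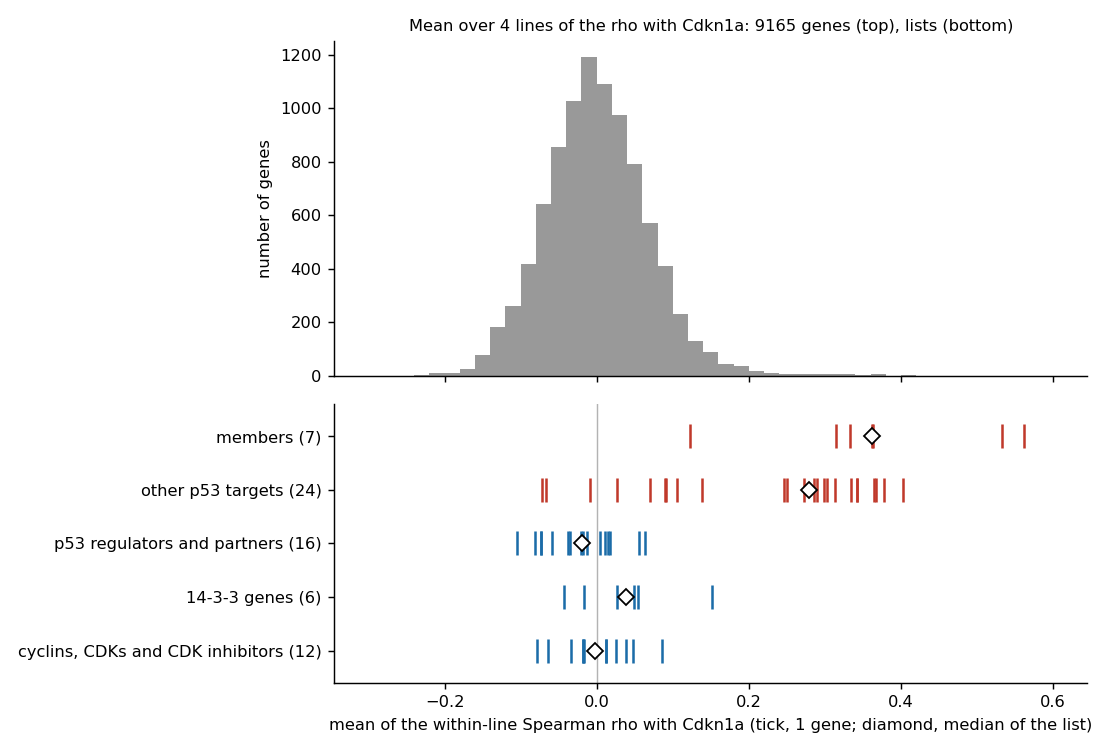
Mean over the 4 lines of the within-line Spearman rho with Cdkn1a: upper panel, number of genes among 9165; lower panel, 1 tick per gene of each list and a diamond at its median. The 24 other p53 targets centre on 0.28, and the regulators, 14-3-3 genes and cell cycle genes centre near 0.

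The genes most like each member between cells, outside the set, were mostly on the list of targets for Mdm2 and Cdkn1a and not for Trp53. For Mdm2 they were Gtse1 (mean rho 0.35), Trp53inp1 (0.30) and the antiproliferative gene Btg2 (0.29), and for Cdkn1a they were Trp53inp1, the adenylate kinase gene Ak1 (0.40) and Gtse1, each among 5751 genes of at least 20 CPM in every line. For Ccng1 they were Serpine2, which encodes a protease inhibitor (0.44), Trp53inp1 (0.44) and Crip2, which encodes a LIM-domain protein (0.43). For Trp53 they included Bzw1, which encodes a regulator of translation start (0.28), and Dbn1, which encodes the actin-binding protein drebrin (0.27). The values given for Trp53 were thus below those of Mdm2, Cdkn1a and Ccng1.

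The other targets did not share 1 direction between FS cells and EpiSCs. Between FS cells and EpiSCs 0 of 28 passed the adjusted threshold in edgeR, against 0% of all genes tested. At an unadjusted p under 0.05 there were 1 higher and 3 lower in FS cells, against 9.06% and 7.02% of all genes tested. Their median log2 difference was -0.34, against -0.01 over all genes tested. Both FS lines were above both EpiSC lines for 2 and below for 9 of the 28, against 26.8% and 21.5% of all genes.
Sesn2, a stress-induced sestrin, had 291, 202, 81.1 and 60.7 CPM in 5ar1, 5ar2, AFX6 and AF32, and its log2 difference was 1.79 (SE 0.29, edgeR adjusted p = 0.19). Gadd45a, a DNA damage-induced gene, was the other with both FS lines above, at 0.90 (SE 0.48, adjusted p = 0.48). The lowest were Gdf15, which encodes a stress cytokine, at -1.65 (SE 0.78, adjusted p = 0.415), and Btg2, with 34.8, 47, 119 and 76 CPM, at -1.27 (SE 0.34, adjusted p = 0.204).

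AFX6 stood above AF32 in the list as well. Of 18 other targets averaging 20 CPM or more, 13 were highest in AFX6 (24.6% of all genes) and 10 were lowest in AF32 (22.7% of all genes). In AFX6, 7 were at least 2-fold higher than in AF32 (4.79% of all genes). The median fold over the 18 was 1.8, against 0.944 over all 7039 genes. The reverse, 2-fold higher in AF32, held for 1 of the 18, Fdxr, a mitochondrial reductase gene named after its values were seen. Of 14 regulators and partners and 12 cell cycle genes 0 were 2-fold higher in AFX6, counts near the 4.79% of all genes, and their median folds were 1.03 and 0.704. Plk2, which encodes a stress-induced kinase and was also named after its values were seen, had 75.5 CPM in AFX6 and 4.27 CPM in AF32.

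**Figure D5:**
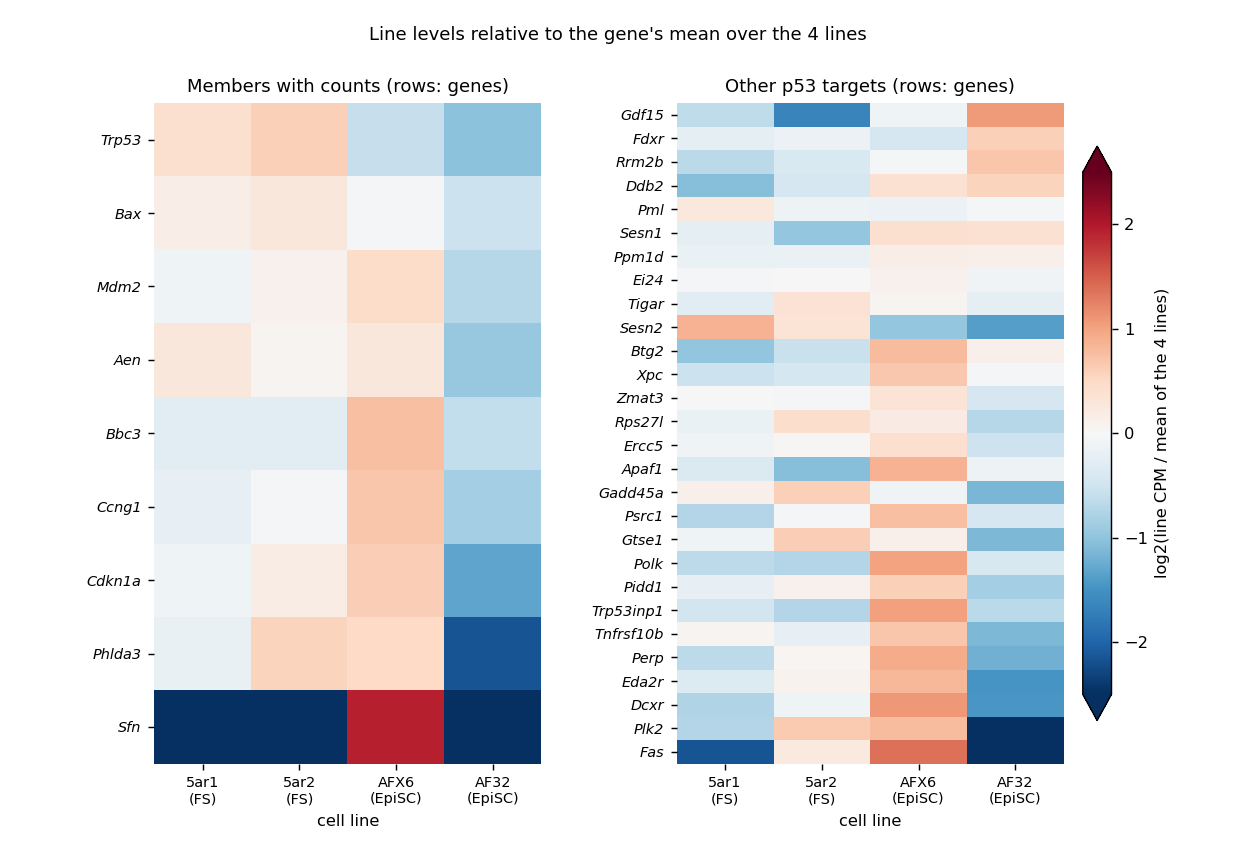
Line level of each gene relative to its mean over the 4 lines, as log2, for 9 genes of the set (left) and 28 other p53 targets (right), ordered by the difference between AFX6 and AF32. The AF32 column is blue for all 9 genes on the left and for most on the right, and Sfn is red in AFX6 alone.

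Of 18 regulators and partners of p53 tested, 0 passed the adjusted threshold in edgeR, as did 0 of all 22606 genes tested. Both FS lines were above both EpiSC lines for 5 and below for 3, counts near the 26.8% and 21.5% of all genes. The median log2 difference was 0.08. Among those whose lines did not overlap, the highest beside Wrap53 was Sirt1, a deacetylase gene of low level (4.06 to 10.4 CPM), at 0.92 (SE 0.41, adjusted p = 0.398). The lowest of these were Mdm4, the partner of Mdm2 in holding p53 down, at -0.69 (SE 0.22, adjusted p = 0.251), and Rpl11, whose protein can bind Mdm2, at -0.45 (SE 0.25, adjusted p = 0.509). Cdkn2a, whose Arf product inhibits Mdm2, had no count in 5ar1, AFX6 and AF32 and 0.0897 CPM in 5ar2. The relatives Trp63 and Trp73 were low, at 0 to 0.79 CPM and 7.9 to 15.2 CPM.

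Among cell cycle genes 0 of 14 passed the adjusted threshold, against 0% of all genes tested, and the median log2 difference was -0.01. Ccne1 and Ccne2, the E-type cyclins that partner Cdk2, were higher in both FS lines, with log2 differences of 1.53 (SE 0.18) and 1.78 (SE 0.46) and edgeR adjusted p of 0.19 and 0.2. Ccne1 had 253 and 227 CPM in the FS lines and 87.1 and 78.1 CPM in AFX6 and AF32. Cdkn1b, which encodes the CDK inhibitor p27, and Cdk6, a G1 kinase gene, were lower, at -1.99 (SE 0.66) and -1.06 (SE 0.16), with adjusted p of 0.269 and 0.19. None of these differences passed the adjusted threshold.

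Sfn (ENSMUSG00000047281, chr4:133600556-133602168, minus strand, 1 exon) was at 144 CPM in AFX6, with 1.7 CPM in 5ar2, 0.766 CPM in 5ar1 and 2.59 CPM in AF32. These values chose the gene and are given without a test. The AFX6 level rested on a few cells, its lowest, median and highest cells having 0, 34.7 and 2233 CPM, and the 5 highest cells held 72.2% of the level summed over cells. At least 5 CPM was reached by 45 of 66 AFX6 cells (68.2%, exact Clopper-Pearson 95% interval 55.6 to 79.1%). The same limit was reached by 2 of 90 cells of 5ar1 (2.22%, 0.27 to 7.8%), 5 of 90 of 5ar2 (5.56%, 1.83 to 12.5%) and 4 of 80 of AF32 (5%, 1.38 to 12.3%). These intervals cover counting error within 1 line only, and no comparison between lines is drawn from them.
A level of 100 CPM or more was found in 15 AFX6 cells and in 0 cells of the other lines. The highest cells elsewhere had 75.5 CPM in 5ar1, 56.8 CPM in 5ar2 and 81.4 CPM in AF32. Counts under 1 CPM were frequent in 5ar1 and AF32, in 23 and 26 cells, and their median over cells with a count was 1 in 5ar1 and 2 in AF32, against 261 in AFX6. Shares of cells with any count, 80.3%, 27.8%, 7.78% and 43.8% in AFX6, 5ar1, 5ar2 and AF32, therefore do not follow the order of the levels.

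Sfn was little related to the p53 targets between cells. Its rho with the 8 genes had a median of 0.02 in AFX6 and ranged from -0.11 with Bbc3 to 0.21 with Cdkn1a, against a median of 0.02 over all gene pairs of that line. In AF32 the median was -0.09, with few cells above 5 CPM. Across the 66 AFX6 cells, the genes most like Sfn among 6879 genes of at least 20 CPM there were S100a11, which encodes a calcium-binding protein, with a rho of 0.55, Tagln2, which encodes an actin-binding protein, with 0.54, and the semaphorin gene Sema3e with 0.52. Tagln2 was itself at 768 CPM in AFX6 against 145 to 319 CPM in the other lines. S100a11 and Sema3e were not highest in AFX6. S100a11 had 76 CPM there and 77 CPM in AF32, and Sema3e had 23.2 CPM there and 28 CPM in 5ar2.

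AFX6 also had the highest levels of surface epithelium markers. Of the 9 markers in the table, 7 were at least 2-fold higher in AFX6 than in AF32, against 3859 of all 22606 genes tested. The summed level of the 9 in the median cell was 2617 CPM in AFX6 against 608 to 655 CPM in the other lines. Epcam, which is part of this sum, was at 1083 CPM in AFX6 and at 362 to 553 CPM in the other lines. Krt5 and Trp63, which define the basal layer of stratified epithelium, had no count in AFX6. The keratin gene Krt18 was at 663 CPM in AFX6 and at 79 to 172 CPM in the other lines, and the claudin gene Cldn7 at 504 CPM against 10.5 to 17.7 CPM. Their part in the level of Sfn was not tested. Of the 6 other 14-3-3 genes 0 were 2-fold higher in AFX6 than in AF32, a count near the 4.79% of all genes, with a median fold of 1. Between FS cells and EpiSCs 0 of 6 passed the adjusted threshold in edgeR, against 0% of all genes tested. Both FS lines were above both EpiSC lines for 5 and below for Ywhae, against 26.8% and 21.5% of all genes tested. The largest difference was that of Ywhag at 0.75 (SE 0.21, edgeR adjusted p = 0.218), followed by Ywhab at 0.58 (SE 0.29, adjusted p = 0.447).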

How the data were processed

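Single cells were processed by Smart-seq2, which carries no molecular identifiers, so counts are not independent molecules. Per the labels and methods, the authors aligned reads to GRCm38.p6 with STAR 2.7.3a and counted uniquely mapped reads per gene with featureCounts 2.0.0, and the deposited unit is the raw count. The authors also deposited sctransform values, a depth-corrected score, used here only in alternatives. Gene positions and exonic lengths came from GENCODE M21.

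CPM was computed per cell, and per line from summed counts. FS cells and EpiSCs were compared by the quasi-likelihood test of edgeR 4.0.16 in R 4.3.3 after TMM scaling and filterByExpr, at a Benjamini-Hochberg adjusted p under 0.05. Alternatives used DESeq2 1.42.0, limma 3.58.1 with a pseudocount of 1, other depth limits, thinning and each line left out. The edgeR fit and the rank correlations were run on simulated data before use. Lines carry no statement of separate cultures, so p-values measure the spread between these lines. Chromosome expression was the mean relative level of 6892 genes per chromosome (capped at 3) over the median of the autosomes, and above 1.2 was called raised. Cells with few detected genes lay over 3 median absolute deviations below their line. Named genes were the 10 genes, per list the 2 highest and 2 lowest log2 differences among genes with lines that do not overlap, and the 3 genes most like Trp53, Mdm2, Cdkn1a, Ccng1 and Sfn. Of these, 1 gene is not reported here. List genes named for their rho with Cdkn1a, or for their own level in AFX6 and AF32, were picked after their values were seen. The genes and lists were chosen with earlier results of these data known. Python 3.11.15 and SciPy 1.17.1 were used for the rest.

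Overlapping genes took few counts: AC167363.2 on the other strand of Cdkn1a had at most 0.337 CPM and Gm45808, on the strand of Bax, at most 0.015 CPM. Smart-seq2 does not mark strand. Of the marker lists, Zfp42, Afp, Ttr, Cdx2 and Krt14 were not analysed here.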

Additional observations from a re-analysis of the deposited data

How the results depend on the processing

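No paired analysis was possible because the shared replicate numbers name single wells of a line, while the lines were compared. edgeR under each other setting of depth, filter, scaling and lines, and limma on CPM, called 0 genes, with 1208 to 5192 at an unadjusted p under 0.05, but DESeq2 called 2500 and limma on normalized values 501. The cause was not tested. Trp53 and Bax kept their direction throughout. Leaving out each line in turn gave log2 differences of 1.05 to 1.54 for Trp53, 0.23 to 0.78 for Bax, -0.49 to 0.73 for Mdm2, -0.61 to 1.37 for Cdkn1a, -0.84 to 0.73 for Ccng1, -1.06 to 0.37 for Bbc3, -0.30 to 2.40 for Phlda3, -0.13 to 1.14 for Aen and -6.89 to -1.05 for Sfn. For the 6 targets from Mdm2 to Aen the highest value was without AFX6 and the lowest without AF32. Other settings changed the sign as follows. Mdm2 was 0.01 (0.0092) with cells of at least 1000000 counts, 0.01 (0.0089) without few-gene cells, 0.46 with limma on CPM and 0.58 on normalized values. Cdkn1a was -0.06 (-0.0606) with at least 4000000 counts, -0.11 with at least 1000000 and -0.06 (-0.0636) without few-gene cells. Ccng1 was 0.11 with limma on CPM and 0.13 on normalized values. The share of AFX6 cells with Sfn was 53.3% with cells of at least 1000000 counts, which adds 24 shallower cells. The count of genes 2-fold higher in AFX6 fell to 3 without cells with chromosome 11 raised, an alternative chosen after seeing the data, as were all those on the order of the lines. The covariation was 0.23 to 0.29 over all its alternatives. Having 2 lines per kind and 1 per EpiSC medium limits every comparison.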

Other observations

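Cells with 1000000 to 3000000 counts entered the comparisons only in the alternatives with the lower limit, and 2 cells of 5ar1, 4 of 5ar2, 24 of AFX6 and 13 of AF32 lay in this range. In these 24 AFX6 cells Cdkn1a was at 348 CPM from summed counts, against 182 CPM in the 66 kept cells, and Bax at 388 CPM against 240 CPM. Phlda3 was at 121 CPM against 226 CPM and Aen at 44.6 CPM against 188 CPM, with median cells of 1.85 and 2.01 CPM. Thus Cdkn1a and Bax were higher in the shallower AFX6 cells, while Phlda3 and Aen, which varied with Cdkn1a among the kept cells, were lower. Sfn was at 120 CPM in them, with a median cell of 0.833 CPM and a highest cell of 1675 CPM. In the 13 shallower AF32 cells Cdkn1a was at 297 CPM, with a median cell of 32.6 CPM, against 47.7 CPM in the 80 kept cells, and Phlda3 was at 37.4 CPM against 36 CPM. Sfn was at 2.24 CPM in them, with a median cell of 0.975 CPM, against 0.833 CPM in the shallower AFX6 cells. Its level per line chose the gene, so these values are a description only. The shallower cells were not tested against the others.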
